A study of Mus musculus with 9 samples.

Results

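The 10 genes described here encode receptors through which B cells sense cytokines, and all 10 were found among the 55536 genes of the count table and again among the 12849 genes of the log2 table. They were picked by name: Il4ra, Il21r, Il2rg, Il7r, Il9r, Il10ra, Il6st, Ifngr1, Ifnar1 and Ifnar2. RNA was sequenced from mouse spleen B cells labelled pre-GC, a stage named as before the germinal centre, in 5 p52Ki libraries (titled p52ki/ki) and 4 WT libraries. p52 is the DNA-binding NF-kB subunit made from Nfkb2. The sources used here do not give how the knock-in was made, the strain or age of the mice, any immunisation or the sort. Whether each library stands for its own mouse is not in the labels either, so every p-value measures only the spread between libraries, part of which may be technical.

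Most of these receptors work as pairs of chains. A private chain binds the cytokine, a shared chain completes the complex, and Janus kinases bound to the tails switch on STAT transcription factors. Il2rg encodes the common gamma chain, which is shared by the receptors for IL-2, IL-4, IL-7, IL-9, IL-15 and IL-21. In B cells, IL-4 and IL-21 from T cells act in class switching, the germinal centre and plasma cell formation. IL-10 and the interferons act through another family of paired receptors, and Il6st encodes gp130, the shared chain for IL-6, IL-27 and related cytokines.

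The libraries held 4492160 to 6647650 counts in genes in p52Ki and 7368604 to 7937579 in WT, while 15504 to 16634 genes were detected in p52Ki libraries and 14033 to 14793 in WT libraries. The 8 B cell markers, among them Ms4a1, Cd79a, Cd79b and Pax5, were counted in both genotypes and summed to 11683 to 15217 CPM (counts relative to the scaled library size) in p52Ki and 10210 to 11405 CPM in WT. By the edgeR test described below, 4.49% of all genes tested rose in p52Ki and 4.04% fell. Of 8 germinal centre B cell markers 7 fell and 0 rose, with a summed level of 958 to 2065 CPM in p52Ki and 3396 to 4324 CPM in WT. Of 8 resting follicular B cell markers 6 rose and 0 fell, at 1598 to 2333 CPM in p52Ki and 748 to 1143 CPM in WT. The part of this shift in the receptor results was not tested, and in bulk RNA fewer cells of a type and less RNA per cell cannot be told apart.

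Of the 10 receptor genes, 4 rose in p52Ki and 0 fell by edgeR's quasi-likelihood test with Benjamini-Hochberg adjustment over the 12849 genes tested (threshold 0.05). The 4 were Il2rg, Il10ra, Il7r and Ifnar1. Of these, Il7r passed the filter on low counts only through its p52Ki libraries. Over all genes tested, 4.49% passed as higher in p52Ki, 4.04% as lower and 8.53% in either direction. At an unadjusted p under 0.05, 5 receptors were higher and 1 was lower, against 10.8% and 10.6% of all genes tested. DESeq2 called 6 receptors in either direction (13.7% of all genes), limma-voom 4 (8.66%) and limma-trend 5 (11.0%). Over all genes without regard to direction, 13.8% showed no overlap between genotypes. The median log2 fold change (p52Ki over WT) of the 10 receptors was 0.95, against 0.03 over all genes tested. All p52Ki libraries lay above all WT libraries in 4 receptors (7.30% of all genes) and below them in 1, Il21r (6.53% of all genes).

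**Figure D1:**
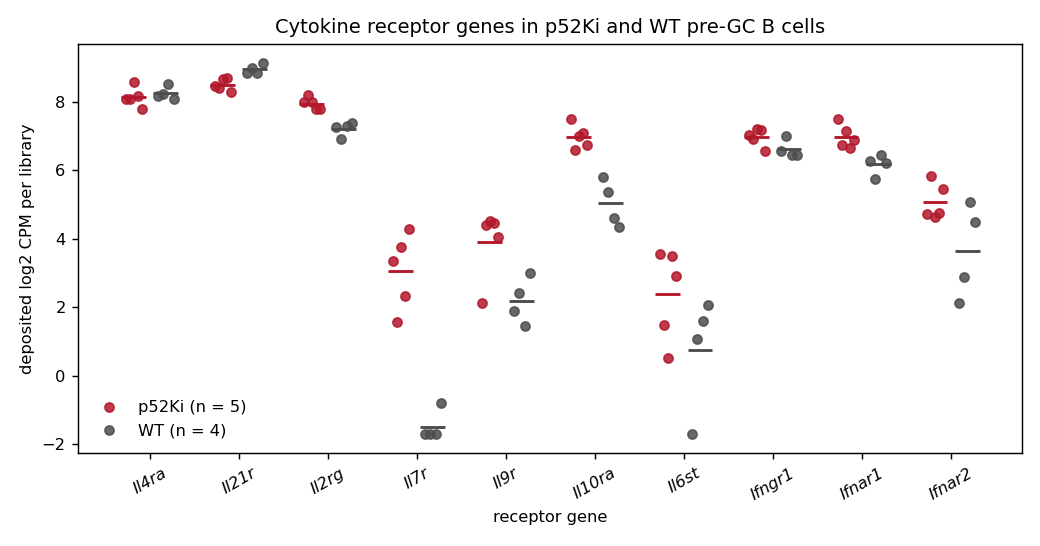
Deposited log2 CPM of the 10 receptor genes (y axis) in each library, with p52Ki points left of WT points for each gene and a bar at the mean of the log2 values. Il2rg, Il10ra, Il7r and Ifnar1 have every p52Ki point above every WT point, Il21r has every p52Ki point below, and values near -1.72 are libraries with 0 counts.

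Il2rg, the common gamma chain (chromosome X, 101264378 to 101268255, minus strand, GRCm38), stood at 252, 293, 254, 222 and 219 CPM in p52Ki replicates 1 to 5, against 153, 121, 156 and 165 CPM in WT replicates 1 to 4. The lowest p52Ki library lay above the highest WT library. The means were 248 ± 30.2 CPM in p52Ki and 149 ± 19.0 CPM in WT (SD, n = 5 and 4), which differed by 0.74 ± 0.15 (SE) on the log2 scale and passed (edgeR adjusted p = 0.0132). It passed in each of the 9 fits that left out 1 library, at adjusted p of 0.0107 to 0.0324. Gm20489, annotated on the same strand, shares 728 exonic bases with Il2rg and had 0 counts in both genotypes.

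Il21r, the private chain for IL-21 (chromosome 7, 125603429 to 125633570, plus strand), stood at 349, 335, 406, 415 and 314 CPM in p52Ki and at 462, 503, 461 and 566 CPM in WT. It was the only receptor with every p52Ki library below every WT library. Its means were 364 ± 44.3 CPM in p52Ki and 498 ± 49.3 CPM in WT (SD, n = 5 and 4). The log2 fold change of -0.45 ± 0.13 was just outside the threshold (edgeR adjusted p = 0.0521), though it passed with DESeq2 (adjusted p = 0.0148) and with limma-trend on the deposited log2 values (adjusted p = 0.0470).

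Il4ra, the private chain for IL-4 and IL-13 (chromosome 7, 125552120 to 125579474, plus strand), lies 23954 bases before Il21r on the same strand. It stood at 271, 270.0, 378, 288 and 219.9 CPM in p52Ki and at 289.7, 299, 363 and 273 CPM in WT. The genotypes overlapped, with the highest and the lowest library both in p52Ki. The log2 fold change was -0.10 ± 0.17 (edgeR adjusted p = 0.804). Gm44876, an antisense gene that shares 571 of the 6002 exonic bases of Il4ra, had 684 counts in p52Ki and 619 in WT, and without strand its reads and those of Il4ra cannot be told apart in the overlap.

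Il7r, the private chain for IL-7, which drives B cell development and is silenced as B cells mature (chromosome 15, 9505788 to 9530176, minus strand), had 68, 15, 82, 31 and 88 counts in p52Ki replicates 1 to 5. In WT it had 0, 0, 0 and 2 counts. Every p52Ki library thus held transcripts of it, at 9.87, 2.65, 13.2, 4.75 and 19.1 CPM, while WT replicate 4 alone among the WT libraries did, at 0.265 CPM. Over summed libraries the ratio of p52Ki to WT was 140 (exact 95% binomial interval 38.3 to 1160, which covers counting error only), and the gene passed (edgeR adjusted p = 0.00780). With 2 counts over all WT libraries, Il7r passed the filter on low counts only through the p52Ki libraries, where it is high. Its adjusted p is therefore given as description. A count of 0 in a WT library allows up to 0.394 to 0.427 CPM.

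T cells and innate lymphoid cells also express Il7r, so their markers are given beside it. The 10 T cell markers summed to 9.29, 2.998, 5.98, 26.5 and 25.4 CPM in p52Ki replicates 1 to 5 and to 12.9 to 17.3 CPM in WT. All 10 had counts in at least 1 library. Of these, 2 were tested (Cd5, which some B cells express, and Lat) and 0 passed (edgeR), against 8.53% of all genes tested. Of the defining genes, Cd3d, Cd3e and Cd3g were at 0 in p52Ki replicates 1 to 3, where Trac had 11, 0 and 0 counts. Cd3g and Trac had counts in p52Ki replicates 4 and 5. Summed counts in p52Ki and WT were 27 and 2 for Cd3d, 2 and 11 for Cd3e and 42 and 26 for Cd3g. They were 30 and 12 for Trac, 28 and 36 for Cd4, 18 and 0 for Cd8a, 17 and 0 for Cd28 and 8 and 0 for Themis. Lat, a large part of the WT sums, averaged 3.05 ± 3.96 CPM in p52Ki and 10.8 ± 4.97 CPM in WT (SD, n = 5 and 4). The 8 NK and innate lymphoid markers summed to 20.5, 1.06, 5.17, 16.2 and 12.8 CPM in p52Ki replicates 1 to 5 and to 0 to 11.9 CPM in WT. Summed counts in p52Ki and WT were 131 and 12 for Prf1, 70 and 35 for Gzma and 67 and 24 for Nkg7. They were 29 and 32 for Ncr1, 25 and 0 for Klrb1c, 15 and 0 for Gata3 and 7 and 0 for Klrd1. Rora was at 0 in every library. The part of these cells in the value of Il7r was not tested.

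Il9r, the private chain for IL-9 (chromosome 11, 32187541 to 32200279, minus strand), stood at 4.065, 20.8, 22.6, 21.8 and 16.1 CPM in p52Ki and at 3.41, 4.98, 2.42 and 7.70 CPM in WT. p52Ki replicates 2 to 5 lay above every WT library and p52Ki replicate 1 lay within the WT range. At 1.88 ± 0.59, its log2 fold change missed the threshold (edgeR adjusted p = 0.0730). Without p52Ki replicate 1 it was 2.13 and passed (edgeR adjusted p = 0.0337), and DESeq2 called it with all libraries (adjusted p = 0.0132).

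The other chains of the common gamma chain family were scarce. Il2ra and Il2rb, which complete the IL-2 receptor, averaged 13.9 ± 7.28 and 5.37 ± 3.68 CPM in p52Ki and 2.90 ± 4.60 and 1.57 ± 1.46 CPM in WT (SD, n = 5 and 4). Of the 6 genes listed 4 were tested and 0 passed (edgeR, 0 at an unadjusted p under 0.05 and 0 by DESeq2 or limma-voom), while limma-trend called Il2ra. Over all genes tested, 8.53% passed by edgeR, 13.7% by DESeq2, 8.66% by limma-voom and 11.0% by limma-trend. At an unadjusted p under 0.05 (edgeR), 10.8% of all genes tested were higher and 10.6% lower. Crlf2, which pairs with the Il7r chain to bind TSLP, was at 12.9, 8.64, 13.7, 6.28 and 10.2 CPM in p52Ki and at 0, 2.08, 10.7 and 0.929 CPM in WT. Il13ra1 and Il13ra2 had 0 counts in all 9 libraries.

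Il10ra, the private chain through which IL-10 signals (chromosome 9, 45253837 to 45269149, minus strand), stood at 179.7, 96.1, 127, 135 and 107 CPM in p52Ki and at 55.9, 40.8, 24.2 and 19.9 CPM in WT. The genotypes did not overlap, and WT replicates 1 and 2 were higher than WT replicates 3 and 4. The means were 129 ± 32.3 CPM in p52Ki and 35.2 ± 16.5 CPM in WT (SD, n = 5 and 4). At 1.87 ± 0.32, its log2 fold change passed (edgeR adjusted p = 0.00610), and it passed in every fit that left out 1 library (adjusted p of 0.00543 to 0.0182). Myeloid cells express Il10ra as well. The 10 myeloid markers summed to 63.3 to 149 CPM in p52Ki and 30.1 to 79.2 CPM in WT. Of these, 4 were tested and 0 passed (edgeR), against 8.53% of all genes tested. Lyz2, the lysozyme of macrophages and neutrophils, averaged 28.5 ± 21.5 CPM in p52Ki and 7.52 ± 4.17 CPM in WT (SD, n = 5 and 4), with every p52Ki library above every WT library (edgeR adjusted p = 0.0685). The other tested markers, Csf1r, Adgre1 and Cd68, overlapped between genotypes. They averaged 31.4, 13.4 and 16.8 CPM in p52Ki and 26.0, 11.9 and 16.1 CPM in WT, in that order. S100a8, S100a9 and Mpo were at 0 in all 9 libraries. The part of myeloid cells in the value of Il10ra was not tested.

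Il10rb, the shared chain that completes the IL-10 receptor, also rose. It stood at 51.0, 41.4, 47.5, 36.8 and 67.6 CPM in p52Ki and at 15.1, 30.4, 7.82 and 16.3 CPM in WT, with no overlap. The log2 fold change was 1.49 ± 0.38 (edgeR adjusted p = 0.0315). Its call was kept without WT replicate 2 or p52Ki replicate 4 and ended when any other library was left out, at adjusted p up to 0.0775.

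Ifnar1 and Ifnar2 encode the chains of the type I interferon receptor. Ifnar1 (chromosome 16, 91485238 to 91507441, plus strand) stood at 180.0, 107, 141, 101 and 117 CPM in p52Ki and at 77.4, 52.8, 87.2 and 74.2 CPM in WT, with every p52Ki library above every WT library. The means were 129 ± 32.3 CPM in p52Ki and 72.9 ± 14.5 CPM in WT (SD, n = 5 and 4), and the log2 fold change of 0.82 ± 0.22 passed (edgeR adjusted p = 0.0397). The call was kept without p52Ki replicate 4 and ended in each of the 8 other fits that left out 1 library, at adjusted p up to 0.0929 and log2 fold changes of 0.67 to 0.94.

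Ifnar2 (chromosome 16, 91372783 to 91405589, plus strand) stood at 26.0, 56.4, 24.7, 26.7 and 43.7 CPM in p52Ki and at 4.07, 7.06, 33.4 and 22.3 CPM in WT. The WT libraries were spread over an 8.21-fold range, with replicates 1, 2 and 4 below every p52Ki library and replicate 3 above 3 of the 5. At 1.09 ± 0.56, its log2 fold change missed the threshold (edgeR adjusted p = 0.298). It was 1.69 without WT replicate 3 and 0.76 without WT replicate 1, and missed the threshold in both fits (edgeR adjusted p = 0.109 and 0.456). Gm21970, annotated on the same strand, shares 315 exonic bases with Ifnar2 and had 0 counts.

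Ifngr1, the chain that binds interferon gamma (chromosome 10, 19591949 to 19610229, plus strand), stood at 129.6, 121, 147, 144 and 94.9 CPM in p52Ki and at 93.3, 128, 87.0 and 86.8 CPM in WT. The genotypes overlapped through p52Ki replicate 5 and WT replicate 2, and the log2 fold change of 0.37 ± 0.19 missed the threshold (edgeR adjusted p = 0.292). Its partner Ifngr2, whose level can limit the response of lymphocytes to interferon gamma, stood at 61.8, 75.7, 85.8, 84.7 and 78.0 CPM in p52Ki and at 30.1, 49.2, 39.5 and 21.6 CPM in WT. Every p52Ki library lay above every WT library, and Ifngr2 rose by a log2 fold change of 1.14 ± 0.26 (edgeR adjusted p = 0.0195), a call that ended without WT replicate 1 (adjusted p = 0.0534). Ifnlr1, of the interferon lambda receptor, was at 2.38 ± 2.67 CPM in p52Ki and 9.75 ± 5.43 CPM in WT (SD, n = 5 and 4) and missed the threshold (edgeR adjusted p = 0.362).

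Ifnar2, Il10rb, Ifnar1 and Ifngr2 lie in this order on the plus strand of chromosome 16, between positions 91372783 and 91565623. The gap between Ifnar2 and Il10rb is 574 bases, that between Il10rb and Ifnar1 is 59403 bases and that between Ifnar1 and Ifngr2 is 39630 bases. Their log2 fold changes were 1.09, 1.49, 0.82 and 1.14 in that order, and Il10rb, Ifnar1 and Ifngr2 passed (edgeR). On chromosome 7 the neighbours Il4ra and Il21r had log2 fold changes of -0.10 and -0.45.

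**Figure D2:**
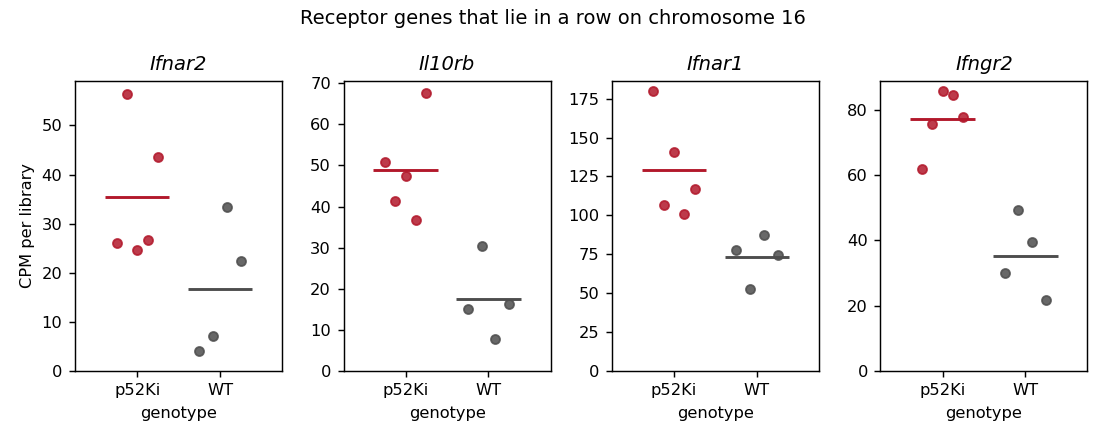
CPM of Ifnar2, Il10rb, Ifnar1 and Ifngr2 in each library (y axis, 1 panel a gene, each with its own scale from 0), p52Ki left of WT, with a bar at the mean. Il10rb, Ifnar1 and Ifngr2 show no overlap between genotypes, while WT replicate 3 of Ifnar2, at 33.4 CPM, lies among the p52Ki libraries.

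Il6st, encoding gp130 (chromosome 13, 112464070 to 112510086, plus strand), was scarce for its length, with 78, 14, 7, 72 and 33 counts in p52Ki and 0, 13, 19 and 29 in WT. The corresponding levels were 11.3, 2.47, 1.13, 11.03 and 7.17 CPM in p52Ki and 0, 1.798, 2.70 and 3.85 CPM in WT. The genotypes overlapped and p52Ki libraries differed 10.02-fold among themselves, so that the log2 fold change of 1.66 ± 1.10 missed the threshold (edgeR adjusted p = 0.436). Il27ra, which pairs with gp130 to bind IL-27, was higher in every p52Ki library, at 52.7, 60.1, 56.8, 56.1 and 35.2 CPM, than in any WT library, at 12.5, 18.3, 23.6 and 21.6 CPM. It rose by a log2 fold change of 1.46 ± 0.28 (edgeR adjusted p = 0.00989). Il6ra, which pairs with gp130 to bind IL-6, was at 10.3 ± 4.92 CPM in p52Ki and 7.69 ± 6.81 CPM in WT (SD, n = 5 and 4) and missed the threshold (edgeR adjusted p = 0.795).

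Over the 4 lists of other cytokine receptor chains, 17 of 31 genes were tested, among which 3 rose (Il27ra, Il10rb and Ifngr2) and 0 fell (edgeR). Over all genes tested, 4.49% rose and 4.04% fell. At an unadjusted p under 0.05, 5 were higher and 0 were lower, where 10.8% of all genes tested were higher and 10.6% lower. The log2 fold change was positive in 15 of the 17, with a median of 1.27, and in 51.8% of all genes tested, with a median of 0.03. The remaining 14 did not pass the filter on low counts, and 8 of these had 0 counts in all 9 libraries. The other 6 had 57 summed counts in p52Ki and 80 in WT for Il20rb, 5 and 58 for Csf2rb2. They had 0 and 26 for Epor, 8 and 20 for Csf3r, 30 and 31 for Il12rb2 and 2 and 0 for Il23r. Few counts lay behind several of the 17 tested chains in WT, where fewer genes were detected as well. The part of this, and of the filter, in the size and direction of their fold changes was not tested. Il5ra, the private chain for IL-5, was at 34.3, 33.5, 56.8, 16.4 and 16.9 CPM in p52Ki and at 6.96, 7.33, 0 and 9.03 CPM in WT, without overlap, and missed the threshold (2.43 ± 0.84, edgeR adjusted p = 0.103). Csf2rb, the shared chain for IL-3, IL-5 and GM-CSF, was at 50.4, 54.3, 4.84, 31.4 and 38.2 CPM in p52Ki and at 3.02, 6.36, 16.6 and 2.92 CPM in WT and missed the threshold (2.31 ± 0.71, edgeR adjusted p = 0.0689). DESeq2 called both.

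**Figure D3:**
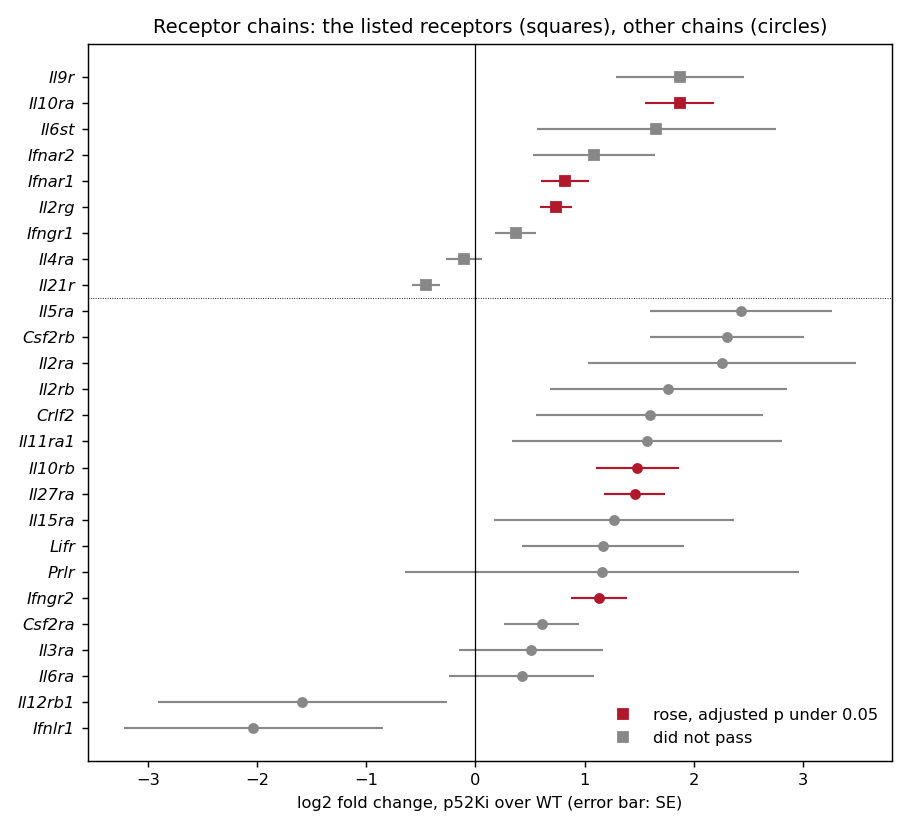
Log2 fold change, p52Ki over WT (x axis, error bars SE), of 9 of the 10 receptor genes (squares) and of the 17 other cytokine receptor chains that were tested (circles). Red symbols passed the adjusted threshold of 0.05 and grey ones did not. Il7r, whose fitted change rests on 2 counts in WT, is left out.

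Per length of exon, Il21r was the most abundant receptor transcript in both genotypes, at 109 ± 13.3 CPM per kb in p52Ki and 149.8 ± 14.8 CPM per kb in WT (SD, n = 5 and 4). Il2rg came next, at 104 ± 12.6 CPM per kb in p52Ki and 62.3 ± 7.98 CPM per kb in WT. In p52Ki the ranges of Il21r and Il2rg overlapped, and Il21r was the higher in 3 of 5 libraries. In WT they were separate, and Il21r was the higher in 4 of 4.

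The order in p52Ki went on with Il4ra, Ifngr1, Il10ra, Ifnar1, Ifnar2, Il9r, Il7r and Il6st. Il4ra and Ifngr1 were close there, at 47.6 and 44.7 CPM per kb with overlapping ranges, and in WT they stood at 51.0 and 34.7 CPM per kb with separate ranges. In WT the order after Il2rg was Il4ra, Ifngr1, Ifnar1, Il10ra, Ifnar2, Il9r, Il6st and Il7r. Il10ra and Ifnar1 stood at 36.8 and 21.7 CPM per kb in p52Ki, where Il10ra was the higher in 5 of 5 libraries, and at 10.1 and 12.3 CPM per kb in WT, where it was the higher in 2 of 4. The ranges overlapped between neighbours in 7 of 9 steps of the order in p52Ki and in 5 of 9 in WT.

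**Figure D4:**
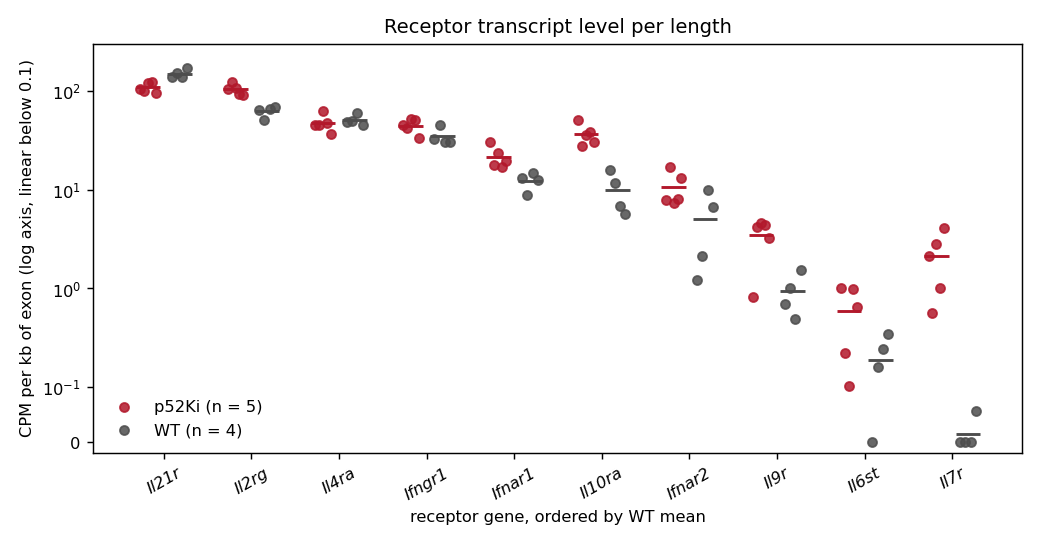
CPM per kb of exon (log axis, linear below 0.1) of the 10 receptor genes in each library, ordered by the WT mean, p52Ki left of WT, with a bar at the mean. Il21r leads in both genotypes, and Il2rg lies at its level in p52Ki (104 against 109 CPM per kb) and below it in WT (62.3 against 149.8 CPM per kb).

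The balance of chains that form a receptor together was measured within each library as the log2 ratio of their counts, which does not depend on library size. The log2 ratio of Il21r to Il2rg was 0.47, 0.19, 0.67, 0.90 and 0.52 in p52Ki replicates 1 to 5 and 1.59, 2.05, 1.56 and 1.78 in WT replicates 1 to 4. The groups did not overlap, and the mean difference (p52Ki minus WT) was -1.20 (exact two-sided permutation p = 0.00794, the smallest that 5 against 4 libraries allow, adjusted 0.0238 over the 6 pairs tested). The log2 ratio of Il4ra to Il2rg averaged 0.19 ± 0.28 in p52Ki and 1.04 ± 0.27 in WT (SD, n = 5 and 4), a difference of -0.85 (exact permutation p = 0.0159, adjusted 0.0318) without overlap. Relative to the shared gamma chain, transcripts of both private chains were thus lower in 5 of 5 p52Ki libraries than in any WT library. Both ratios share Il2rg, so they are not independent of each other or of its rise (log2 fold change 0.74). Il4ra itself had a log2 fold change of -0.10 and Il21r of -0.45.

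The log2 ratio of Ifngr1 to Ifngr2 averaged 0.71 ± 0.28 in p52Ki and 1.54 ± 0.37 in WT (SD, n = 5 and 4), a difference of -0.82 without overlap (exact permutation p = 0.00794, adjusted 0.0238). For Il10ra to Il10rb the averages were 1.40 ± 0.49 in p52Ki and 1.05 ± 0.82 in WT (exact permutation p = 0.452), with WT ratios from 0.29 to 1.88. For Ifnar1 to Ifnar2 they were 1.91 ± 0.77 in p52Ki and 2.56 ± 1.29 in WT (exact permutation p = 0.389), and for Il9r to Il2rg -4.07 ± 1.06 in p52Ki and -5.11 ± 0.74 in WT (exact permutation p = 0.135). These 3 differences did not pass, and their groups overlapped. The pairs Il7r with Il2rg and Il6st with Il6ra had under 10 counts in some library and were not tested.

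**Figure D5:**
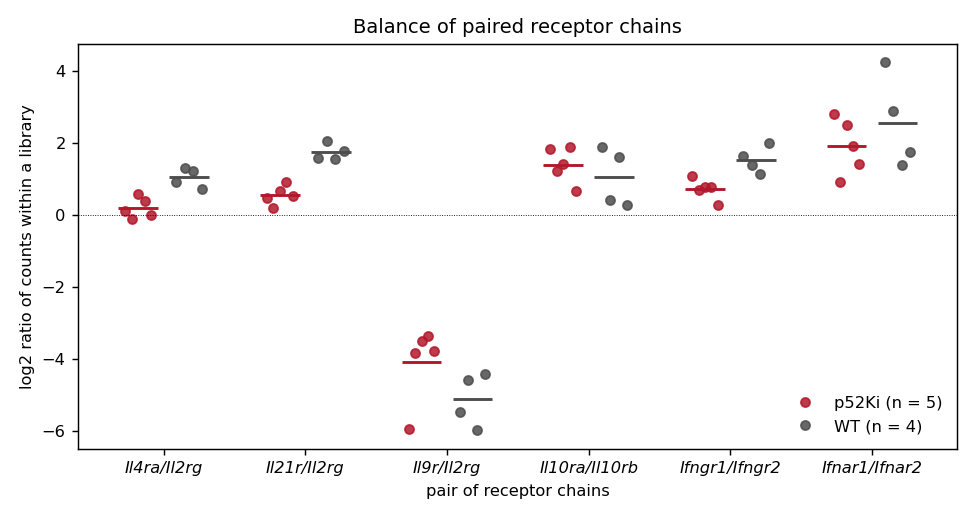
Log2 ratio of counts of paired receptor chains within each library (y axis) for the 6 pairs tested, p52Ki left of WT, with a bar at the mean. The p52Ki points lie below all WT points for Il4ra/Il2rg, Il21r/Il2rg and Ifngr1/Ifngr2 and overlap with them for the other 3 pairs.

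The series title pairs p52 with ETS1, so the RefSeq promoters of these genes (GRCm38.p6, 250 bases before to 50 after the start) were searched on both strands for the ETS core GGAA, for the kappa-B motif and for the STAT letters TTCNNNGAA. An entry was found for 9 of the 10 receptors, all but Il10ra. The promoters of 3 receptors that rose are shown, beside that of Il21r, which did not pass by edgeR and holds no GGAA. Other receptors that did not pass, Il6st, Il4ra and Ifnar2, do hold it. Capitals mark each GGAA, or TTCC where it lies on the other strand, and bases are given 5′ to 3′ along the gene's strand. The windows are chrX:101268206-101268505 (minus) for Il2rg, chr16:91484965-91485264 (plus) for Ifnar1, chr15:9529827-9530126 (minus) for Il7r and chr7:125603179-125603478 (plus) for Il21r. That of Il7r lies wholly within the gene span given above, which ends at 9530176. Its RefSeq start thus differs from the start of that span.
Il2rg: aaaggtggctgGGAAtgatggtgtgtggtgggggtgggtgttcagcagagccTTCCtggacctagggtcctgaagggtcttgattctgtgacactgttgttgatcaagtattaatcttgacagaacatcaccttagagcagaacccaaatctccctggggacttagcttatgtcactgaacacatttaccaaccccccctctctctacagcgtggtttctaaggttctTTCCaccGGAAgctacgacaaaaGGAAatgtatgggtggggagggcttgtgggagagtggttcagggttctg
Ifnar1: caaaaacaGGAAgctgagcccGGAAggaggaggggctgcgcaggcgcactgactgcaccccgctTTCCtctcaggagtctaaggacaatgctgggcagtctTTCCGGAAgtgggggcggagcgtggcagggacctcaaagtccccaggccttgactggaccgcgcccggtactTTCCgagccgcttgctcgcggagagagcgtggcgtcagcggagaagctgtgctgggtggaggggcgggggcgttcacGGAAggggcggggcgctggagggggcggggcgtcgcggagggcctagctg
Il7r: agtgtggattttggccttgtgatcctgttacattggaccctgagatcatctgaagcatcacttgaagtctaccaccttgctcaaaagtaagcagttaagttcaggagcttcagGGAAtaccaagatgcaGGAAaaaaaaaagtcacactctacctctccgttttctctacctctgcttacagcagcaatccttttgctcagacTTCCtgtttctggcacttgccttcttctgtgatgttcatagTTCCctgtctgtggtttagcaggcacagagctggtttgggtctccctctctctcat
Il21r: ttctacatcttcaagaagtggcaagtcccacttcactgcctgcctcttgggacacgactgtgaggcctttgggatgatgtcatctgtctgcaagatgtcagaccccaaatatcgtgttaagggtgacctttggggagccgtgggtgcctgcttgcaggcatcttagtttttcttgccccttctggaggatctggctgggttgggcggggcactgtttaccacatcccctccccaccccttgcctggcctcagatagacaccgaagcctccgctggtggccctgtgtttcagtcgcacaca

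Among the receptors that rose, GGAA occurred 5 times in the Il2rg promoter, 7 times in that of Ifnar1 and 4 times in that of Il7r. Among those that did not pass, it occurred 7 times in Il6st, 3 times in Il4ra and 2 times in Ifnar2, against a median of 3 over 32817 promoters of the same length, of which 96.0% held at least 1. Il21r, Il9r and Ifngr1 held none, so that 6 of the 9 receptor promoters (66.7%) held the letters. The longer form CCGGAA, found in 14.9% of all promoters, occurred once or more in Il2rg, Ifnar1 and Il6st, and it contains GGAA. The kappa-B motif, found in 4.50% of all promoters, occurred in Il4ra alone among the receptors, at a position that overlaps a GGAA, and also in Ifngr2. TTCNNNGAA, found in 8.29% of promoters, occurred in Il7r, Ifnar1 and Ifnar2, and its matches there share bases with a GGAA. These are matches of letters in a short window and no measure of binding.

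Among the kinases that carry the signal, 0 of 4 passed (edgeR), against 8.53% of all genes tested. At an unadjusted p under 0.05, 1 was higher and 1 was lower, against 10.8% and 10.6% of all genes tested. Jak1, which serves nearly all of these receptors, was at 435 ± 76.9 CPM in p52Ki and 528 ± 45.5 CPM in WT (SD, n = 5 and 4, edgeR adjusted p = 0.311), and Jak3, which binds the gamma chain, at 66.3 ± 10.6 CPM in p52Ki and 70.8 ± 23.1 CPM in WT (edgeR adjusted p = 0.881). Tyk2, which binds Ifnar1 and Il10rb, differed by 0.70 ± 0.22 on the log2 scale and missed the threshold (edgeR adjusted p = 0.0782), while DESeq2 and limma-voom called it higher. Jak2, which binds Ifngr2, had a log2 fold change of -0.90 ± 0.38 (edgeR adjusted p = 0.188).

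Of 7 STAT factors, 1 fell and 0 rose (edgeR), against 4.04% and 4.49% of all genes tested. Stat5a, used by the IL-2, IL-7 and IL-9 receptors, stood at 26.4, 20.5, 26.0, 35.7 and 38.2 CPM in p52Ki and at 70.7, 55.3, 70.1 and 64.6 CPM in WT. Every p52Ki library lay below every WT library, and the log2 fold change was -1.15 ± 0.24 (edgeR adjusted p = 0.0148). Stat6, the factor of IL-4, was at 265 ± 56.1 CPM in p52Ki and 203 ± 48.1 CPM in WT (edgeR adjusted p = 0.281), and Stat3, that of IL-10 and IL-21, at 273 ± 44.0 CPM in p52Ki and 260.1 ± 30.6 CPM in WT (SD, n = 5 and 4, edgeR adjusted p = 0.867).

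Of 13 inhibitors of cytokine signals 12 were tested and 0 passed (edgeR), against 8.53% of all genes tested. At an unadjusted p under 0.05, 3 were higher and 0 were lower, against 10.8% and 10.6% of all genes tested. The 3 were Socs5, Ptpn6 and Usp18. Usp18, which binds Ifnar2 and damps the type I interferon signal, was at 52.4, 33.7, 32.5, 34.9 and 45.2 CPM in p52Ki and at 14.8, 0.138, 7.54 and 7.96 CPM in WT. The genotypes did not overlap. At 2.38 ± 0.72 on the log2 scale it missed the threshold by edgeR (adjusted p = 0.0662) and passed with DESeq2, limma-voom and limma-trend. Cish, a target and inhibitor of STAT5, had 0 counts in all 9 libraries.

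Most genes of the cytokines themselves had few or no counts in these libraries. Of 15 ligand genes 8 had 0 counts in all 9 libraries, among them Il21, Il7, Il9 and Ifnb1, where a count of 0 in a library allows up to 0.394 to 0.652 CPM. Il10, Il15 and Ebi3 were the 3 tested, and 0 passed (edgeR, and 0 at an unadjusted p under 0.05 or by DESeq2, limma-voom or limma-trend). Over all genes tested, 8.53% passed by edgeR, 13.7% by DESeq2, 8.66% by limma-voom and 11.0% by limma-trend. At an unadjusted p under 0.05 (edgeR), 10.8% were higher and 10.6% lower. Ebi3 averaged 12.7 ± 9.64 CPM in p52Ki and 8.65 ± 5.23 CPM in WT (SD, n = 5 and 4). Summed counts in p52Ki and WT were 140 and 19 for Il15 and 103 and 16 for Il10. Ifng had 35 counts in p52Ki and 2 in WT, and Il4 had 4 counts in p52Ki and 0 in WT.

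Of 13 IL-4 and IL-21 response genes tested 1 rose and 2 fell (edgeR), against 4.49% and 4.04% of all genes tested. The median over the list was -0.24 on the log2 scale. Cd86, a costimulatory ligand, fell to 108 ± 27.1 CPM in p52Ki, against 222 ± 57.6 CPM in WT (SD, n = 5 and 4, edgeR adjusted p = 0.0169), a call that ended without WT replicate 3 or p52Ki replicate 3 (adjusted p up to 0.0557). Junb, an AP-1 factor that many cytokines and other stimuli induce, rose to 682 ± 146 CPM in p52Ki, against 318 ± 69.4 CPM in WT (edgeR adjusted p = 0.00687). Fcer2a, the IgE receptor CD23 that IL-4 induces, was at 357 ± 96.4 CPM in p52Ki and 428 ± 88.0 CPM in WT (edgeR adjusted p = 0.551).

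Among interferon response genes, 19 were tested, 4 rose and 0 fell (edgeR), against 4.49% and 4.04% of all genes tested. The median over the list was 1.78 on the log2 scale. Oasl1 and Bst2 were at 45.3 ± 5.33 and 37.1 ± 8.17 CPM in p52Ki and 11.05 ± 5.63 and 8.92 ± 5.01 CPM in WT (SD, n = 5 and 4, edgeR adjusted p = 0.00610 and 0.0152). Mx1 had 718 counts in p52Ki and 8 in WT, and Ifit1 had 327 counts in p52Ki and 0 in WT. Both passed the filter on low counts only through their p52Ki libraries, where they are high. Their calls are therefore given as description. Few counts lay behind other genes of the list in WT, such as 54 for Ifit3, 72 for Mx2 and 101 for Oasl2. The part of low counts and of the filter in the calls and the median of this list was not tested. DESeq2 called 8 of the interferon response list as higher, limma-voom 7 and limma-trend 11. Over all genes they called 7.74%, 4.16% and 6.32% as higher.

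For the receptors that rose, the tested genes with the most similar profile over the 9 libraries were found as those with the smallest root mean square difference in centred log2 CPM, among 9748 genes. For Il2rg they were Fam13b, Tbc1d10c (an inhibitor of calcineurin) and Atp6v0b (of the proton pump), at 0.13, 0.15 and 0.15. For Ifnar1 they were Dnajc4, Tapbp (tapasin, which loads MHC class I) and AI467606, at 0.19, 0.19 and 0.20. For Il10ra they were Angptl1, Tead2 and Adamts10, at 0.27, 0.33 and 0.34, and for Il7r they were Zfp438, Zfp72 and Snx33, at 0.48, 0.52 and 0.58. The likeness includes the difference between genotypes, so whether these genes passed between genotypes is not given as a result.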

How the data were processed

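Mouse spleen B cells labelled pre-GC were profiled by RNA-seq in 5 p52Ki and 4 WT libraries. Per the labels' protocols, cDNA was made from low-input RNA with SMART-Seq v2 and Nextera XT, which do not mark strand, and reads carry no molecular identifiers. The submitters' processing notes list build GRCm38 and the tools featureCounts (Subread 1.6.2), HISAT2 2.1.0 and SAMtools 1.8; annotation, strand setting and the handling of overlapping genes are not given in these sources. One table the authors deposited holds whole-number counts per gene. They also deposited log2 CPM values, which equalled edgeR's log CPM of those counts (TMM, prior count 2) to within 4.97e-14.

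The main test was edgeR 4.0.16 in R 4.3.3 (filterByExpr, TMM, robust quasi-likelihood F test, no covariate) on all 9 libraries, adjusted over 12849 genes. SE was taken as the size of the log2 fold change divided by the root of F. Chain ratios used a pseudocount of 0.5 and exact permutation over 126 splits. CPM per kb used the union of exons in GENCODE M21. Intervals and limits of a 0 count (3 counts) cover counting error only. DESeq2 1.42.0, limma 3.58.1 and the other alternatives are in the closing section. Receptors and lists were chosen with earlier results of these data known. Named genes are all 10 receptors, passing or smallest-p genes of each list, and nearest profiles by the stated measure; others were chosen after their values were seen. Some genes of the lists are not reported here by name.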

Additional observations from a re-analysis of the deposited data

Results flagged for a closer look

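A library far from the others of its genotype was found in 2 of 20 sets of values (10 receptors in 2 genotypes), where chance gives about 1 in 20. Ifngr1 in WT replicate 2, at 127.8 CPM, stood apart from the other WT libraries at 86.8 to 93.3 CPM, and without it the log2 fold change of Ifngr1 was 0.52 and again missed the threshold (edgeR adjusted p = 0.139). Il7r in WT replicate 4, at 0.265 CPM, rests on 2 counts where the other WT libraries had 0. Beside libraries that all had 0, any count would have set it apart, so the rate of 1 in 20 does not apply to Il7r.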

How the results depend on the processing

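With DESeq2's size factors, no filter, a filter of 10 CPM in 4 libraries, immunoglobulin and T cell receptor genes removed, limma-voom, limma-trend or a GC and length correction, the 4 rising receptors kept their calls where tested, Il7r being left out by the 10 CPM filter. 1096 genes passed over all, 1766 with DESeq2, and 625 to 1108 when 1 library was left out (714 without WT replicate 1, 711 without WT replicate 4, 651 without p52Ki replicate 1, 625 without p52Ki replicate 3, 716 without p52Ki replicate 5). Il21r was called by DESeq2 at -0.43 and by limma-trend at -0.46, and Il9r by DESeq2 at 1.91.

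Same-numbered libraries showed no shared deviation (correlations of -0.04 to -0.01, where other pairs ran from -0.05 to 0.07). Such values cannot exclude a shared batch or litter, and the labels do not say whether the numbers pair the libraries. With the replicate number as a block, in which p52Ki replicate 5 adds nothing, 129 genes passed (1.00%) and 1 receptor, Il10ra, while Il2rg (0.78), Il7r (6.69) and Ifnar1 (0.84) did not, at adjusted p of 0.0898, 0.0761 and 0.0942. Under the block 0 class II chains, 0 gp130 and IL-12 family chains, 0 STAT factors, 1 IL-4 and IL-21 response gene and 1 interferon response gene passed. Over the 4 same-numbered pairs the log2 ratio of Il21r to Il2rg differed by -1.19, and no p under 0.125 is possible there.

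Leaving out 1 library gave log2 fold changes of 0.67 to 0.94 for Ifnar1 and 1.69 to 2.25 for Il9r. Il4ra ran from -0.21 to 0.01, turning positive without WT replicate 3 (0.014) or p52Ki replicate 5 (0.0014). The difference between genotypes (p52Ki minus WT) in the log2 ratio of Il9r to Il2rg ran from 0.75 to 1.505, the highest without p52Ki replicate 1, where the unadjusted exact permutation p was 0.0286, the smallest that 4 against 4 libraries allow. That of Ifnar1 to Ifnar2 ran from -1.04 to -0.09 and that of Il10ra to Il10rb from 0.09 to 0.62, neither past the threshold. Calls ran from 0 to 2 of the class II chains and of the beta common group, and from 0 to 1 of the kinases and inhibitors. Over all genes, 625 to 1108 passed in these fits.

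Of the lists, the beta common group had 1, 2 and 1 calls at 10 CPM in 4 libraries, with DESeq2 and with limma-trend. The kinases had 1 at 10 CPM, with DESeq2 and with limma-voom, the STAT factors 2 at 10 CPM and with DESeq2, and the inhibitors 1 at 10 CPM and with DESeq2, limma-voom or limma-trend. Other gamma family chains had 1 with limma-trend, and interferon response genes 8, 7 and 11 with DESeq2, limma-voom and limma-trend. Of all genes tested in each setting, 12.2% passed at 10 CPM, 13.7% with DESeq2, 8.66% with limma-voom and 11.0% with limma-trend. In the main fit 8.53% passed. Few counts lay behind Il6st and Il7r, with at most 29 and 2 counts in a WT library. The cause of none of these changes was tested.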
